A study of Mus musculus with 6 samples.

Results

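Hearts of untreated apoE-deficient mice were compared with hearts of wild-type B6 mice, gene by gene. The apoE-deficient mice lacked apolipoprotein E on a B6 background, and the labels give neither the allele nor its breeding history. Mice of both groups were 8 months old, received no drug and ate a diet with 7% fat and 0.15% cholesterol. Each group had 2 Affymetrix arrays, so the comparison rests on 4 of the 6 arrays of the series. The other 2 arrays came from failing hearts of apoE-deficient mice given rosiglitazone, an antidiabetic activator of the receptor PPAR-gamma, at 30 mg per kg per day for 2 months from 6 months of age. They entered the normalization and the estimate of spread, and their values are given only where stated. Of 45037 probe sets that are not array controls, 27022 were bright enough to test, and they represent 13236 named genes.

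Apolipoprotein E is a protein of very low density lipoproteins and lipoprotein remnants that binds receptors of the LDL receptor family and so lets tissues clear these particles. Without it, mice on chow carry high plasma cholesterol and develop atherosclerosis with age. The heart takes most of its energy from fatty acids, many of them released from lipoproteins by lipoprotein lipase, and nuclear receptors of the PPAR family adjust its fatty acid genes to supply. Macrophages, which clear lipids and dead cells, also make apolipoprotein E.

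Apoe itself, the gene named in the label, was measured first. The Apoe signal was 26.6 and 67.4 in apoE-deficient hearts against 3834 and 3698 in B6 hearts. Apoe thus differed by -6.12 ± 0.27 on the log2 scale (± is the standard error of limma's fit throughout, adjusted p = 6.45e-06). The 2 treated apoE-deficient arrays had Apoe signals of 62.2 and 65.2, so no apoE-deficient array overlapped with B6. It was not determined whether the probes match the part of Apoe that was removed. Signals are quantile-normalized intensities, which can be set against each other for the same gene but not between genes. Differences are of log2(signal + 11.1), which understates changes of dim genes.

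Across the genes tested, 510 (3.85%) rose and 617 (4.66%) fell in apoE-deficient hearts, 8.51% in all, at an adjusted p under 0.05 with limma and Benjamini-Hochberg adjustment over all probe sets. These shares are the background for the gene groups below. Of 27022 probe sets 7.06% passed. At an unadjusted p under 0.05 stood 25.2% of genes, and in 52.8% both apoE-deficient arrays lay on 1 side of both B6 arrays, so a lack of overlap alone is common. Only 45 of the genes that rose and 65 of those that fell changed more than 2-fold, and the median log2 difference of all genes was 0.001. Calls were 45.3% higher here, 82.8% with scaling to the hybridization controls and 25.4% with array medians centred, which moved the median difference of all probe sets to 0.11 and -0.085, and 4.28% without scaling, where it moved to -0.32. Without B6 replicate 2, 363 genes passed, without B6 replicate 1, 384, and without untreated apoE-deficient replicate 1 or 2, 479 or 521. With no intensity trend in the variance model, 4 genes passed (Hspa1a, Hspa1b, Cpxm2 and Egr1). Nothing in the labels ties each array to its own mouse. The p-values therefore measure only how far these arrays scatter, technical scatter possibly included, and 2 arrays a group limit the precision.

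**Figure D1:**
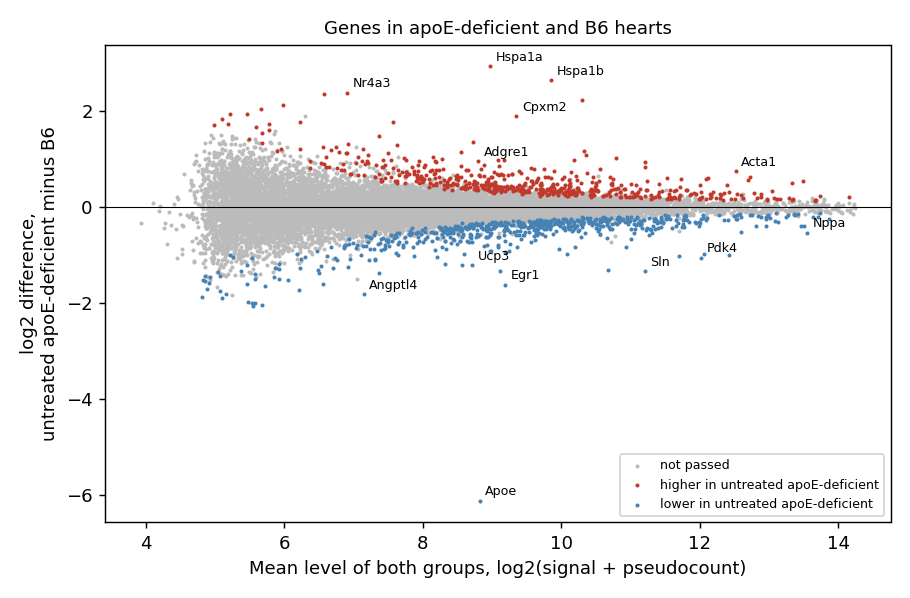
Each point is 1 of 13236 genes, with the mean log2(signal + pseudocount) of both groups on the x axis and the log2 difference, untreated apoE-deficient minus B6, on the y axis. Red points rose and blue points fell; Apoe stands alone at -6.12, Hspa1a and Hspa1b are the highest named points at 2.94 and 2.65, and most genes lie near 0.

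The raw brightness of the arrays differed between the groups. The 2%-trimmed mean signal was 126 and 130 in the apoE-deficient pair against 175 and 149 in the B6 pair, and the hybridization controls differed likewise (654 to 655 against 847 to 977). The 3' to 5' signal ratio of beta-actin was 1.29 to 1.31 against 1.30 to 1.34, which overlapped, and that of Gapdh was 0.904 to 0.923 against 0.89 to 0.903, which did not. Replicate arrays correlated over probe sets at 0.968 within the apoE-deficient and 0.977 within the B6 pair, against 0.964 to 0.966 between the groups. The Y-linked Eif2s3y was bright on all arrays (361 and 385 against 385 and 356), and Xist, the X-inactivation transcript of females, was dim (27.5 and 64.9 against 27.7 and 43.8). Of 4 tested sex-linked genes 1 passed, the dim Y-linked Uty (71.6 and 88.2 against 150 and 139, log2 difference -0.78, adjusted p = 0.026), and another Uty probe set gave 0.10. Of 16 cardiomyocyte markers all were measured, with summed signals of 238436 and 240758 against 249685 and 250221. Markers of lung, thymus and liver did not pass in either direction (0 of 11, 0 of 3 and 0 of 3 tested with limma, and 0 at an unadjusted p under 0.05).

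**Figure D2:**
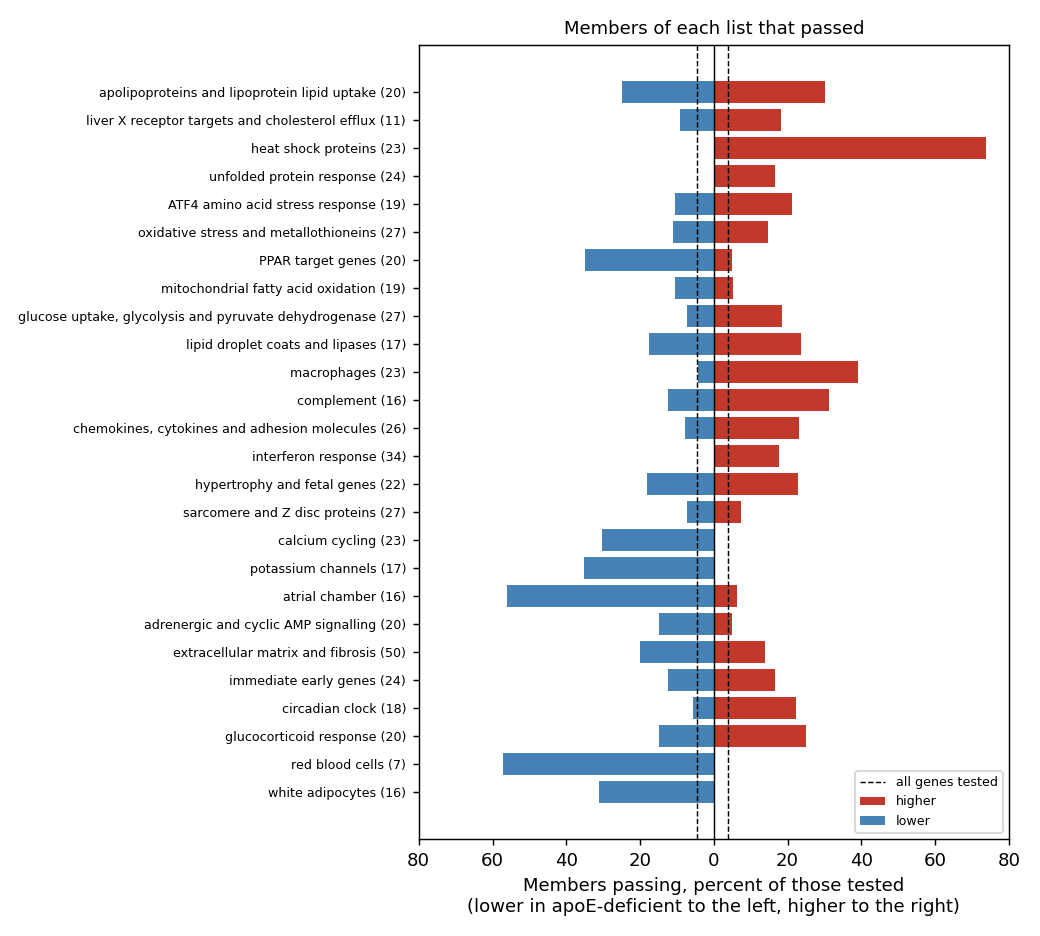
Bars give, for each gene group shown (tested members in brackets), the percent of tested members that rose (red, to the right) or fell (blue, to the left) in untreated apoE-deficient hearts. The groups shown are a part of the 66 lists, and the lists left out range from 0 members passing to shares above those of all genes. Dashed lines mark the shares over all genes, 3.85% and 4.66%; heat shock proteins reach 73.9% to the right and atrial chamber genes and red blood cell genes 56.2% and 57.1% to the left.

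Around Apoe, genes on both sides differed between the groups. Of the 30 genes nearest to Apoe in the RefSeq gene order, 17 were tested, 5 rose and 1 fell. Trappc6a, a subunit of a vesicle-tethering complex, had signals of 663 and 673 against 249 and 255 on the B6 arrays, a log2 difference of 1.37 ± 0.09 (limma adjusted p = 9.20e-05). The treated apoE-deficient arrays had Trappc6a at 528 and 605, above both B6 arrays as well. Bcam, a laminin-binding surface protein, gave 1330 and 1242 against 2022 and 2001, a log2 difference of -0.64 ± 0.06 (adjusted p = 4.33e-04).

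The apolipoprotein gene Apoc4 lies close to Apoe and was dim in both groups, with 51.0 and 56.6 against 8.03 and 6.30 (log2 difference 1.83 ± 0.37, adjusted p = 0.0212). The other neighbours that rose were the splicing-related Clasrp (0.67), the phosphatase regulator Ppp1r37 (0.37) and the mitochondrial import pore Tomm40 (0.32), whose difference was -0.01 without scaling. The apolipoprotein gene next to Apoe, Apoc1, gave 52.7 and 38.4 against 44.5 and 50.2, and these overlapped. Trappc6a and Bcam kept their calls when any of the 6 arrays was left out, and the other 4 lost theirs without at least 1 array.

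Among 20 tested apolipoproteins and genes of lipoprotein lipid uptake, 6 rose and 5 fell, with a median of 0.016. Angptl4, a secreted inhibitor of lipoprotein lipase, had signals of 48.2 and 85.1 against 237 and 273 (log2 difference -1.81 ± 0.21, adjusted p = 0.00172). Both apoE-deficient arrays thus lay far below both B6 arrays. The lipase Lpl itself gave 16093 and 16447 against 17533 and 17191, which did not pass (adjusted p = 0.0866), and Gpihbp1, the anchor of that lipase on capillaries, rose by 0.32 ± 0.05. Members that also rose were Apod (0.63), the HDL receptor Scarb1 (0.41), the phospholipid transfer protein Pltp (0.38) and the VLDL receptor Vldlr (0.26). For Vldlr another probe set passed as lower (-0.32), and the mean of its probe sets was -0.11. Sort1, a sorting receptor (-0.62), the hormone-sensitive lipase Lipe (-0.38) and the fatty acid transporter Cd36 (-0.17) fell, and Cd36 turned to 0.09 with scaling to the hybridization controls. With 1 of the 4 untreated or B6 arrays left out, 1 to 3 members were higher and 2 to 3 lower, and Angptl4 and Apoe kept their calls throughout. With the mean of a gene's probe sets Sort1 and Scarb1 did not pass.

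Of 11 tested targets of the liver X receptors and genes of cholesterol export, 2 rose and 1 fell (median 0.032). These receptors sense oxidized cholesterol and switch on cholesterol export. Both that rose were exporters. Abca1 had signals of 1012 and 1135 against 700 and 684 (log2 difference 0.62 ± 0.07, adjusted p = 0.00135). Abcg1 gave 361 and 385 against 198 and 228 (0.78 ± 0.10, adjusted p = 0.00304). Both kept their calls with any array left out. The oxysterol-binding Osbpl1a fell by 0.30 on the log2 scale, a call lost as the mean of its probe sets. Genes of cholesterol synthesis passed in 0 of 20 tested with limma, and 6 of them had an unadjusted p under 0.05, against 25.2% of all genes.

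Heat shock proteins rose in 17 of 23 tested members, the highest share of any of the 66 gene lists. These chaperones fold newly made and damaged proteins, and their genes are switched on by the factor HSF1, which binds repeats of the letters GAA in alternating orientation. Stretches upstream of the transcription start are printed for 6 members that rose, from RefSeq (GRCm38.p6), 5′ to 3′ in the direction of the gene. They were picked from members and annotated starts that hold such a repeat, so each shows 1 by selection. The other annotated starts of Dnaja1 held 0. Capitals mark each match to GAANNTTC or TTCNNGAA, the shortest form of such a repeat, which reads the same on both strands; adjacent matches share letters.
Hspa1a: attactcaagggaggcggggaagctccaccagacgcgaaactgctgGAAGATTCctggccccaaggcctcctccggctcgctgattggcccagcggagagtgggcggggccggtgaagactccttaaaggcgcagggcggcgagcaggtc
Hspa1b: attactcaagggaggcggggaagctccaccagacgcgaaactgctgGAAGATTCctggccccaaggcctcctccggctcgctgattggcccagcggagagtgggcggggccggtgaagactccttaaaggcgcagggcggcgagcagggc
Hsph1: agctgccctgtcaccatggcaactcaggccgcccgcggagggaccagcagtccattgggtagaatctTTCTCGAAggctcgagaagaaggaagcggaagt
Dnaja1: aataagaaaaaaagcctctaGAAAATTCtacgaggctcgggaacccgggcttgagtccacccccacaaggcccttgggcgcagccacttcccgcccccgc
Hspb1: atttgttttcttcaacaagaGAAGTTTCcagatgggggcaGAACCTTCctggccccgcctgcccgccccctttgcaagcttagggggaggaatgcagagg
Hspe1: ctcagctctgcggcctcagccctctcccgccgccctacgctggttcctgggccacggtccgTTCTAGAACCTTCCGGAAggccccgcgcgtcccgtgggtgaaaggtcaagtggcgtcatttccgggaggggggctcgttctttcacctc
The stretches lie at chr17:34972157-34972306 on the minus strand (Hspa1a), chr17:34959239-34959388 on the minus strand (Hspa1b), chr5:149636337-149636436 on the minus strand (Hsph1), chr4:40722324-40722423 on the plus strand (Dnaja1), chr5:135887782-135887881 on the plus strand (Hspb1) and chr1:55087998-55088147 on the plus strand (Hspe1). The upstream 250 bases of Hspa1a and Hspa1b were identical at 247 positions. Of 20 heat shock genes with a promoter entry, 9 held a match in those 250 bases, among them 8 of the 15 that rose, and 14.5% of all genes did. Hspe1 and Hspd1, the partners of the mitochondrial chaperonin, run away from 1 shared start region on opposite strands and share its 3 matches. Another annotated start of Hspd1 had 0 matches. A match is a description of letters only.

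Of 23 tested heat shock genes 17 rose and 0 fell (median 0.45 against 0.001 for all genes). Hspa1a, an inducible HSP70, had signals of 1450 and 1316 against 165 and 177, with a wide gap between the groups. It was 7.66-fold higher (log2 difference 2.94 ± 0.10, adjusted p = 1.91e-06). Hspa1b, its near-identical neighbour, gave 2325 and 2294 against 399 and 325 (log2 difference 2.65 ± 0.10, adjusted p = 2.75e-06), and the probes of these 2 genes may detect both transcripts. On the treated apoE-deficient arrays both genes were near the B6 level, Hspa1a at 172 and 163 and Hspa1b at 309 and 296. Not every member was. The treated arrays had Hsp90aa1 at 2970 and 2838, above both B6 arrays (1753 and 1632), and Dnaja1 at 1230 and 1359, below both (1710 and 1820).

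Among partners of HSP70, the exchange factor Hsph1 gave 1899 and 1934 against 812 and 882 (log2 difference 1.17 ± 0.06, adjusted p = 2.51e-05). The J-domain co-chaperones Dnaja1, Dnajb1 and Dnajb4 rose by 0.84, 0.81 and 0.43, and the exchange factors Hspa4l and Bag3 by 0.70 and 0.37. Hspa8, the constitutive HSC70, was among the brightest genes, with 13754 and 14100 against 9379 and 9651 (0.55 ± 0.04, adjusted p = 2.59e-04). In the HSP90 system, Hsp90aa1 gave 3170 and 3330 against 1753 and 1632 (0.94 ± 0.05, adjusted p = 3.92e-05), and its helpers Ahsa1 and Stip1 rose by 0.47 and 0.45. Another probe set of Ahsa1 gave -0.28 and did not pass, and as means of their probe sets Ahsa1 (0.10) and Hspa4l (0.39) lost their calls.

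Of the small heat shock proteins, Hspb1 gave 12453 and 11913 against 8389 and 8859 (log2 difference 0.50 ± 0.04, adjusted p = 4.69e-04), and Hspb8 rose by 0.29. The muscle-rich Hspb6 and Hspb7 rose by 0.15 each and lost that sign without scaling (-0.02 and -0.07). Hspe1 gave 4600 and 4600 against 3711 and 3717 (log2 difference 0.31 ± 0.04, adjusted p = 0.00257), and 0.27 as the mean of its probe sets, which did not pass. Hspd1 gave 5492 and 5468 against 5387 and 5572, which overlapped, and the difference between these 2 genes was not tested. With scaling to the hybridization controls Hspd1 passed as higher (0.24). With 1 untreated or B6 array left out 13 to 14 heat shock genes were higher and 0 lower, and 20 and 4 were higher with control-based scaling and without scaling.

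**Figure D3:**
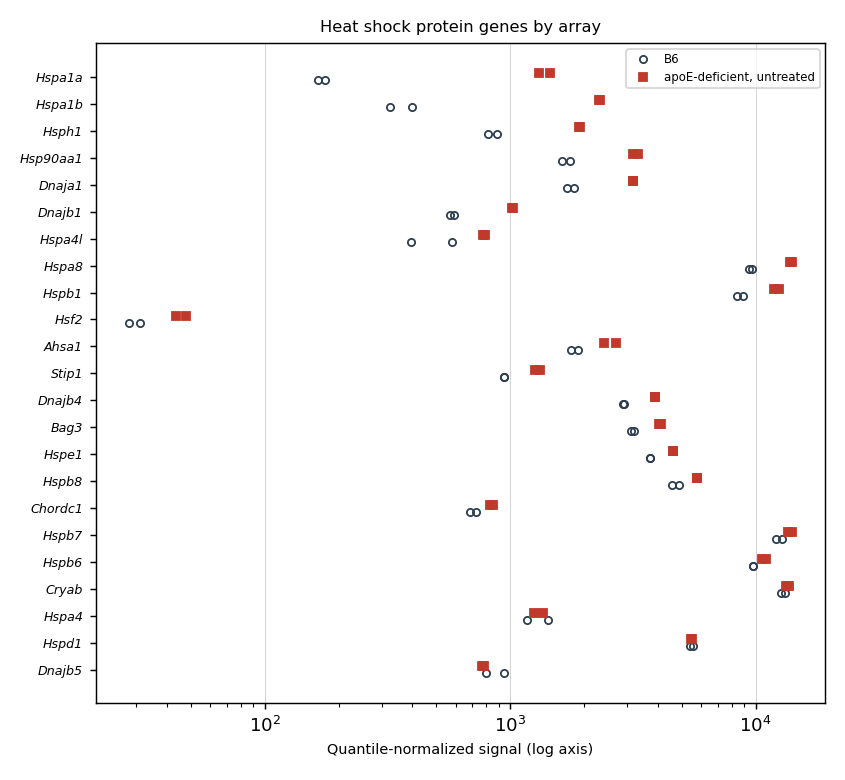
Quantile-normalized signal (x, log axis) of the 23 tested heat shock genes on each array, red squares for the 2 untreated apoE-deficient arrays and open circles for the 2 B6 arrays, in order of log2 difference. The groups lie far apart for Hspa1a and Hspa1b (1450 and 1316 against 165 and 177 for Hspa1a) and coincide for Hspd1.

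Stress genes of the endoplasmic reticulum moved less. Of 24 genes of the unfolded protein response 4 rose and 0 fell (median 0.20), with 1 to 2 higher when 1 untreated or B6 array was left out, 10 with control-based scaling and 0 without scaling. Manf, a secreted protein of that response, gave 1503 and 1447 against 988 and 883 (log2 difference 0.65 ± 0.07, adjusted p = 0.00141). The chaperone-like Creld2 (0.68) and Hyou1 (0.47) and the sensor Atf6 (0.28, and -0.05 without scaling) rose too. Hspa5, the main chaperone of this compartment, gave 5102 and 4853 against 4716 and 4678 and did not pass, while another Hspa5 probe set rose by 0.35 and a further one fell by 0.66. As means of their probe sets Hyou1 and Atf6 did not pass.

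In the amino acid stress response driven by the factor Atf4, 4 of 19 tested genes rose and 2 fell (median 0.15), and 1 and 0 without scaling. Atf4 gave 1198 and 1301 against 850 and 806 (log2 difference 0.59 ± 0.07, adjusted p = 0.00259), but another Atf4 probe set gave -0.12 and the mean of both, 0.23, did not pass. Atf3, a stress-induced partner, gave 351 and 258 against 116 and 114 (1.31 ± 0.19, adjusted p = 0.0049). The amino acid transporter Slc7a5 (1.21) and the factor Cebpb (0.38) also rose, and the translation inhibitor Eif4ebp1 (-0.31, and -0.009 as the mean of its probe sets) and the mTOR inhibitor Ddit4 (-0.25) fell.

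Among 27 genes of oxidative stress and metallothioneins 4 rose and 3 fell (median 0.001), and 10 were higher with control-based scaling. The metal-binding Mt2 gave 1890 and 1931 against 954 and 824 (log2 difference 1.10 ± 0.07, adjusted p = 8.87e-05) and Mt1 8442 and 8363 against 5523 and 5404 (0.62 ± 0.03, adjusted p = 2.72e-05). Gclc, which makes glutathione precursor, rose by 0.54. Catalase, Cat, gave 1892 and 1618 against 2636 and 2471 (-0.54 ± 0.10, adjusted p = 0.0155), although another probe set gave -0.04. Nnt, the mitochondrial transhydrogenase, gave 7906 and 8127 against 10028 and 9808 (-0.31 ± 0.05, adjusted p = 0.00911). Of the Nnt probe sets besides, 1 passed as lower (-0.78) and 1 at 0.56 did not pass. The autophagy receptor Sqstm1 gave 4792 and 4812 against 3496 and 3468 (0.46 ± 0.04, adjusted p = 3.14e-04), but its other probe set gave -0.41 and the mean of both, 0.03, did not pass. Gclc, Cat and Nnt did not pass as means of their probe sets either. Leaving out any array kept Manf, Atf3, Atf4, Mt1, Mt2 and Sqstm1 past the threshold, and the other genes named here lost their calls without at least 1 array.

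Of 20 tested PPAR target genes 7 fell and 1 rose (median -0.18). Pdk4, the kinase that blocks pyruvate oxidation when fatty acids are plentiful, gave 2871 and 2884 against 5933 and 5997. The log2 difference was -1.05 ± 0.04 (adjusted p = 4.30e-06), and both apoE-deficient arrays lay below both B6 arrays. Ucp3, a mitochondrial carrier induced by fatty acids, gave 316 and 222 against 624 and 635 (-1.21 ± 0.15, adjusted p = 0.00257). The treated arrays were also below B6 for Pdk4 (1878 and 1979) and Ucp3 (174 and 164), but not for Angptl4 (2470 and 1986).

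Further members that fell were the thioesterase Acot1 (-0.77 ± 0.17, adjusted p = 0.0338), the lipid droplet protein Plin5 (-0.46 ± 0.05, adjusted p = 0.00187), the carnitine transferase Cpt1a (-0.41 ± 0.09, adjusted p = 0.0232), Angptl4 and Cd36. The carnitine carrier Slc25a20 rose by 0.33 ± 0.07 (adjusted p = 0.0226), but another probe set of it fell by 0.22. The receptor gene Ppara gave 923 and 1070 against 811 and 905, which did not overlap and did not pass (adjusted p = 0.199). Its coactivator Ppargc1a gave 1219 and 1238 against 1257 and 1118, which overlapped. Between 4 and 5 members were lower with 1 untreated or B6 array left out, Pdk4, Ucp3, Plin5 and Angptl4 each time. Cpt1a and Slc25a20 lost their calls as means of their probe sets.

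The enzymes of mitochondrial fatty acid oxidation as a group had 1 of 19 tested higher and 2 lower (median -0.06), and 0 lower with 1 untreated or B6 array left out. With control-based scaling 8 were higher and 1 lower. Acadl, a long-chain acyl-CoA dehydrogenase, gave 10447 and 10401 against 11566 and 11418 (log2 difference -0.14 ± 0.03, adjusted p = 0.0335), 0.10 with control-based scaling, and not past the threshold as the mean of its probe sets. Bdh1, the first enzyme of ketone body use, gave 2485 and 2536 against 1215 and 1233, a difference of 1.03 ± 0.04 (adjusted p = 5.61e-06). The treated apoE-deficient arrays were higher still in Bdh1, at 3828 and 3827. Of 52 genes of the respiratory chain 3 rose and 5 fell (median -0.019), and of 20 of the citric acid cycle 0 rose and 1 fell.

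For glucose use, 5 of 27 tested genes rose and 2 fell (median 0.084). Slc2a1, the insulin-independent glucose transporter, gave 416 and 439 against 326 and 312 (log2 difference 0.41 ± 0.09, adjusted p = 0.0246). The glycolytic mutases Pgam1 and Pgam2 rose by 0.47 ± 0.06 (adjusted p = 0.00405) and 0.28 ± 0.03 (adjusted p = 0.00238). Txnip, a glucose-induced protein that restrains glucose uptake, gave 2322 and 2325 against 4624 and 4797. The log2 difference of Txnip was -1.02 ± 0.04 (adjusted p = 3.79e-06). Pdk3, another kinase of the pyruvate dehydrogenase complex, was dim (15.4 and 7.94 against 69.2 and 87.5) and fell by 1.99 ± 0.31 (adjusted p = 0.00719). With control-based scaling 18 of these genes were higher, with no scaling 0, and with 1 array left out 2.

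**Figure D4:**
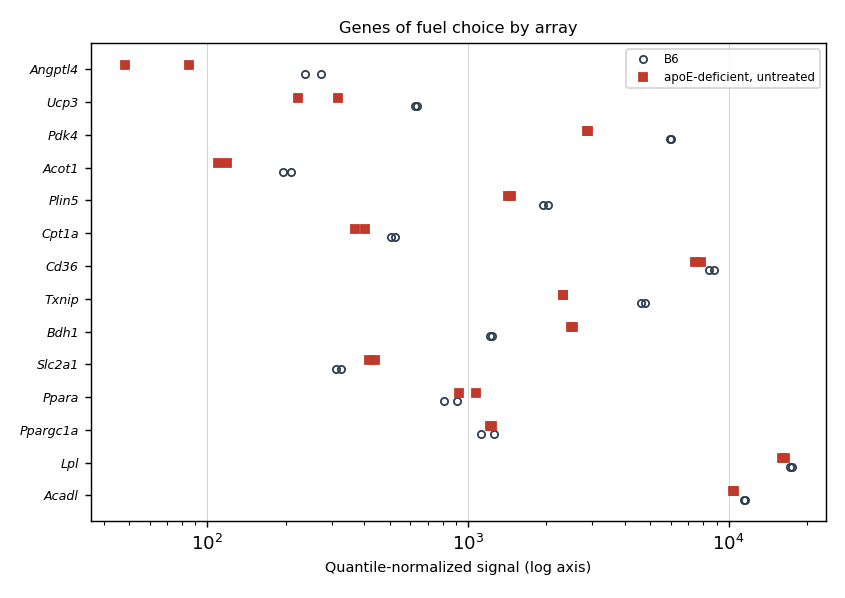
Quantile-normalized signal (x, log axis) of genes of fuel choice, red squares for the 2 untreated apoE-deficient and open circles for the 2 B6 arrays. Pdk4 (2871 and 2884 against 5933 and 5997) and Txnip lie to the left of B6, Bdh1 to the right, and Ppargc1a overlaps.

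Genes of stored fat moved both ways, and markers of fat cells were partly lower. In the lipid droplet group 4 of 17 rose and 3 fell (median 0.15), with 7 higher under control-based scaling, 0 without scaling and 1 to 3 when 1 untreated or B6 array was left out. The lipase inhibitor G0s2 gave 1323 and 1318 against 958 and 908 (log2 difference 0.50 ± 0.06, adjusted p = 0.00253), and the lipase activator Abhd5 rose by 0.49. Genes of lipid synthesis rose in 4 of 22 tested and fell in 3 (median -0.018). Among those that fell, the desaturase Scd1 gave 439 and 426 against 630 and 707 (-0.61 ± 0.07, adjusted p = 0.00186), or -0.38 as the mean of its probe sets, which did not pass, and Fasn, fatty acid synthase, fell by 0.33. Fabp5, a fatty acid carrier of macrophages and endothelium, gave 2081 and 2157 against 2942 and 2987 (-0.48 ± 0.04, adjusted p = 4.69e-04).

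Beside them, white adipocyte markers fell in 5 of 16 tested and rose in 0 (median -0.16). The adipocyte hormone Adipoq gave 84.9 and 87.4 against 177 and 154 (log2 difference -0.86 ± 0.10, adjusted p = 0.00187). The carbonic anhydrase Car3 gave 502 and 460 against 849 and 882 (-0.83 ± 0.06, adjusted p = 1.43e-04). The droplet protein Cidec was dim, with 15.1 and 15.2 against 40.1 and 42.8. The list's summed signal was 34291 to 34452 against 37559 to 38073, and Lep was below the filter on dim probe sets. Most of that sum came from Lpl (16093 and 16447 against 17533 and 17191), Fabp4 (7746 and 7578 against 8661 and 7931) and Cd36 (7818 and 7459 against 8399 and 8763). Lpl is also on the list of lipid-laden macrophages and Fabp4 on that of endothelium, so the sum is not a measure of fat cells alone. Cd36 and Lipe are themselves members of this list and among the 5 that fell. The part of fat cells in the differences of Angptl4, Cd36, Lipe, Scd1 and Fasn was not tested. In tissue RNA, fewer cells of a type cannot be told apart from less RNA per cell. With 1 untreated or B6 array left out 2 to 4 markers were lower, Adipoq and Car3 each time.

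Of 23 tested macrophage markers 9 rose, 1 fell and 13 did not pass (median 0.47), and the summed signal was 18905 and 19277 against 14629 and 14533. Most of the rise of that sum came from the lysozyme genes Lyz1 (6348 and 6286 against 4488 and 4608) and Lyz2. Adgre1, the F4/80 antigen, gave 604 and 614 against 303 and 313 (log2 difference 0.96 ± 0.08, adjusted p = 3.78e-04). The lysosomal Cd68 gave 385 and 401 against 186 and 216 (0.93 ± 0.11, adjusted p = 0.00172). Lysozyme, Lyz2, gave 4106 and 4176 against 2768 and 2764 (0.58 ± 0.04, adjusted p = 9.93e-05), and no array of these genes overlapped with the other group.

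The signalling adaptors Tyrobp and Fcer1g rose by 0.69 and 0.66, Aif1 by 1.05, Ms4a7 by 0.66, Lyz1 by 0.47 (0.17 and not passing as the mean of its probe sets) and the Fc receptor Fcgr3 by 0.41. Csf1r, the receptor for the macrophage growth factor, differed the other way (2083 and 2158 against 2434 and 2641, -0.26 ± 0.05, adjusted p = 0.0242), a call lost as the mean of its probe sets. Among the members that did not pass were Mrc1 at 638 and 648 against 603 and 649, Cd163 at 233 and 217 against 277 and 262, and Lyve1 at 493 and 516 against 443 and 398, although another Lyve1 probe set rose by 0.65. Genes of lipid-laden macrophages rose in 0 of 14 tested and fell in 1, Fabp5. Counts of macrophage markers that were higher ranged from 5 to 8 with 1 untreated or B6 array left out, and were 13 and 0 with control-based scaling and without scaling.

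Complement genes, many made by macrophages, rose in 5 of 16 and fell in 2 (median 0.45). C1qb gave 1960 and 1983 against 1145 and 1122 (log2 difference 0.79 ± 0.05, adjusted p = 8.46e-05), and the other chains of the starter protein C1q, C1qc and C1qa, rose by 0.63 and 0.54. Clu rose by 0.19, and the inhibitor Cd59a and the protease Masp1 fell. The protease C1s1 gave 393 and 375 against 202 and 236 (0.78 ± 0.10, adjusted p = 0.00318). The rise of the macrophage sum stands beside these values, and its part in them was not tested. Complement genes that were higher numbered 4 to 5, and those lower 0, with 1 untreated or B6 array left out. With control-based scaling 6 were higher, and without scaling 0.

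Of 26 chemokines, cytokines and adhesion molecules 6 rose and 2 fell (median 0.40). The monocyte chemokine Ccl8 gave 166 and 204 against 83.7 and 93.9 (log2 difference 0.97 ± 0.13, adjusted p = 0.00442), and Ccl9 and Ccl6 rose by 0.59 and 0.37, Ccl6 not as the mean of its probe sets. The endothelial adhesion molecules Icam1 (290 and 319 against 196 and 181) and Vcam1 (445 and 386 against 308 and 279) rose by 0.66 ± 0.11 and 0.49 ± 0.10. Cxcl1 rose by 0.69 in its brightest probe set while another fell by 0.92, and the mean of them was -0.23. Ccl24 and Selp were dim and fell, and Ccl24 lost its call when genes were tested as means. The cytokine genes Il6, Tnf and Il10 were below the filter on dim probe sets. With 1 untreated or B6 array left out 2 to 3 were higher and 0 lower, and 9 and 0 were higher with control-based scaling and without scaling.

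Interferon response genes rose in 6 of 34 tested and fell in 0 (median 0.23). Ifi27l2a gave 1226 and 1228 against 699 and 737 (log2 difference 0.77 ± 0.07, adjusted p = 5.14e-04), and the GTPase Gbp6 gave 538 and 489 against 296 and 295 (0.77 ± 0.08, adjusted p = 0.00141). The antiviral Oas2 rose by 1.05, Ifit1 by 0.84, Ifit3 by 0.59 and the factor Irf9 by 0.72. Between 2 and 4 were higher with 1 untreated or B6 array left out, 12 with control-based scaling and 0 without scaling.

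Other genes of immune cells differed outside these counts. The leukocyte integrin Itgb2 gave 289 and 294 against 118 and 158 (log2 difference 1.03 ± 0.15, adjusted p = 0.0049), and Cd52, a surface peptide of lymphocytes and monocytes, gave 415 and 383 against 204 and 169 (1.05 ± 0.12, adjusted p = 0.00173). Cd52 was the only 1 of 9 tested T cell and natural killer cell markers that passed (median -0.04), and 8 others were too dim to test. Acp5, the tartrate-resistant phosphatase of macrophages and osteoclasts, gave 190 and 223 against 23.2 and 40.4 (2.37 ± 0.23, adjusted p = 7.12e-04). Ms4a6d rose by 1.18. S100a8, a protein of neutrophils, gave 58.2 and 34.2 against 129 and 141 (-1.38 ± 0.26, adjusted p = 0.0176). It was the only 1 of 8 tested neutrophil and monocyte markers that passed (median 0.062). Ms4a6d and S100a8 lost their calls without at least 1 array.

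**Figure D5:**
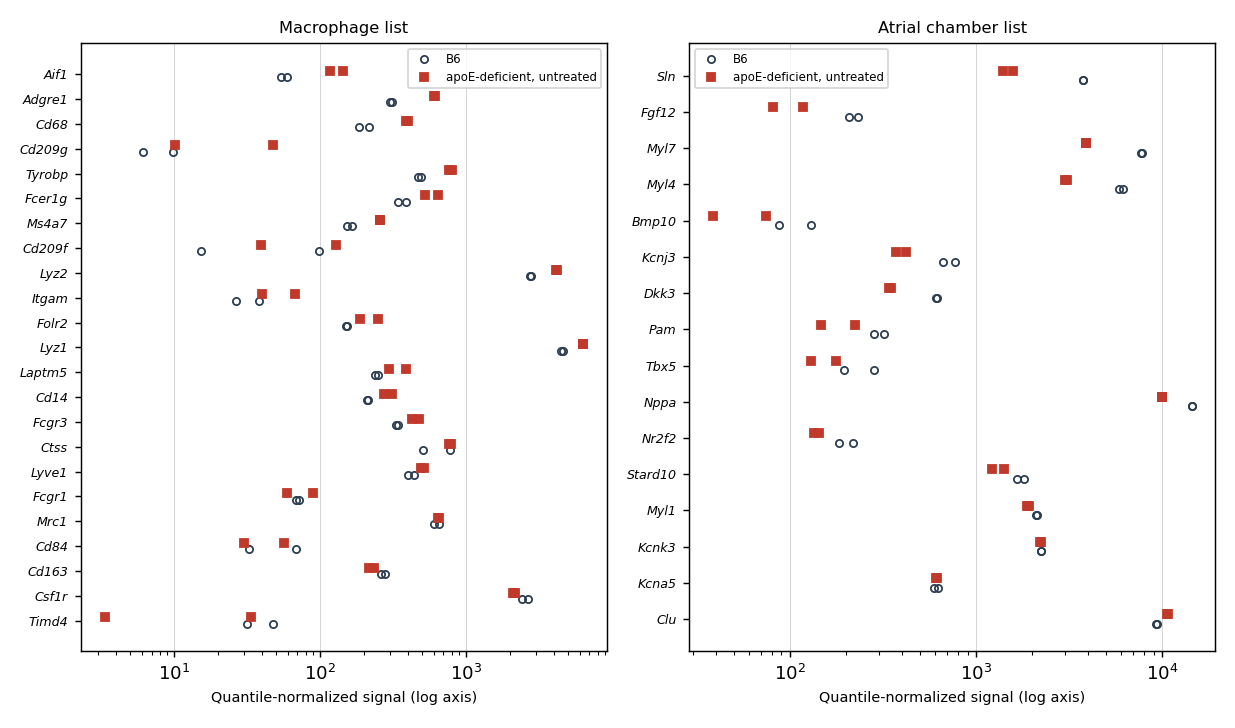
Quantile-normalized signal (x, log axis) of the tested macrophage genes (left) and atrial chamber genes (right) on each array, red squares for the 2 untreated apoE-deficient and open circles for the 2 B6 arrays. Adgre1 lies at 604 and 614 against 303 and 313, to the right of B6, and Sln at 1579 and 1392 against 3772 and 3733, to the left.

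Of 16 tested genes of the atrial chambers 9 fell and 1 rose (median -0.64), and the summed signal was 36443 and 36422 against 50159 and 50383. Sln, an atrial inhibitor of the calcium pump, gave 1579 and 1392 against 3772 and 3733 (log2 difference -1.33 ± 0.06, adjusted p = 5.64e-06). The atrial myosin light chains Myl7 (3877 and 3873 against 7780 and 7715) and Myl4 (3002 and 3068 against 5878 and 6131) fell by 0.998 ± 0.032 and 0.98 ± 0.04 on the log2 scale. Nppa, atrial natriuretic peptide, gave 9945 and 9971 against 14366 and 14366 (-0.53 ± 0.03, adjusted p = 2.13e-05). The treated apoE-deficient arrays stood above both groups, Sln at 6649 and 6728 and Myl7 at 11084 and 10985.

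The growth factor homologue Fgf12 (-1.07), the acetylcholine-gated channel Kcnj3 (-0.83), the secreted Dkk3 (-0.81), the peptide-processing Pam (-0.70) and the lipid-binding Stard10 (-0.40) fell as well. Clu, the secreted chaperone clusterin, rose by 0.19. Kcna5, a channel on the same list, gave 610 and 619 against 625 and 595, which overlapped. Outside the list, Mybphl, an atrial myosin-binding protein, gave 304 and 372 against 897 and 836 (-1.33 ± 0.10, adjusted p = 1.43e-04). Ventricular chamber genes fell in 3 of 11, Irx3 (-0.54), Irx5 (-0.51) and Fhl2 (-0.24), and rose in 0. The labels do not say which parts of the heart were taken, and the part of the share of atrial tissue in these differences was not tested. Between 6 and 9 atrial genes were lower with 1 untreated or B6 array left out, Sln, Myl7, Myl4, Nppa, Kcnj3 and Dkk3 each time. As means of their probe sets Myl4 (-0.63), Kcnj3 (-0.26) and Fgf12 (-0.58) did not pass.

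Among 22 tested genes of hypertrophy and the fetal program 5 rose and 4 fell (median 0.01), and 9 and 1 were higher with control-based scaling and without scaling. Acta1, skeletal alpha-actin, a marker of ventricular load, gave 7495 and 7715 against 4533 and 4494 (log2 difference 0.75 ± 0.04, adjusted p = 9.87e-06). Nppb, brain natriuretic peptide, gave 7878 and 8146 against 5311 and 5551 (0.56 ± 0.04, adjusted p = 2.03e-04), opposite to Nppa. The Z-disc repair protein Xirp1 gave 2003 and 1967 against 1408 and 1408 (0.49 ± 0.06, adjusted p = 0.0024), and the calcineurin target Rcan1 rose by 0.47 and Mybpc2 by 0.50. The factors Myocd (-0.53) and Mef2a (-0.25) fell beside Nppa and Fhl2, and neither passed as the mean of its probe sets (-0.33 and -0.08). The myosin heavy chains Myh7 (2221 and 2359 against 2105 and 1846) and Myh6 (19719 and 19719 against 19024 and 18452) did not pass, nor did Ankrd1 (10466 and 10881 against 10110 and 9751), although another Ankrd1 probe set rose by 0.26.

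Sarcomere genes rose in 2 of 27 tested and fell in 2, and with control-based scaling 13 were higher and 0 lower. The Z-disc protein Myot gave 1733 and 1621 against 1051 and 992 (log2 difference 0.71 ± 0.06, adjusted p = 2.85e-04), and titin, Ttn, gave 9413 and 10280 against 12736 and 12987 (-0.39 ± 0.04, adjusted p = 0.00168). Of 5 other Ttn probe sets 2 passed, both as lower (-0.39 and -0.40), and the mean of all, -0.25, did not pass. With any array left out Acta1, Nppb, Nppa, Xirp1, Myot and Ttn kept their calls.

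Of 23 tested calcium cycling genes 7 fell, 0 rose and 16 did not pass (median -0.11). Beside Sln these included the calmodulin kinases Camk2g (543 and 536 against 741 and 889, -0.58 ± 0.09) and Camk2d (399 and 373 against 579 and 476, -0.43 ± 0.10), and the calcium channel subunit Cacna2d1 (-0.26). The sodium-calcium exchanger Slc8a1 fell by 0.43 in its brightest probe set, and the mean of its probe sets was 0.08. Camk2d and Cacna2d1 also lost their calls as means. The pump Atp2a2 (15891 and 16121 against 16447 and 17428), its inhibitor Pln (13841 and 14177 against 14556 and 14845; another probe set fell by 0.18) and the release channel Ryr2 (5751 and 5913 against 6293 and 6243) did not pass.

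Potassium channel genes, which end each heartbeat's action potential, fell in 6 of 17 and rose in 0 (median -0.22). Kcne1, a subunit of the slow delayed rectifier, gave 104 and 95.3 against 197 and 188 (log2 difference -0.88 ± 0.17, adjusted p = 0.0167), and its pore Kcnq1 gave 661 and 653 against 832 and 851 (-0.35 ± 0.07, adjusted p = 0.0159). Kcnh2 (-0.39), Kcnd2 (-0.36) and the partner of Kcnj3, Kcnj5 (-0.48), fell too, and Kcnj3 and Kcnj5 are atrial. Gja1, the main gap junction protein of the ventricle, gave 6230 and 6230 against 8199 and 8199 (-0.40 ± 0.04, adjusted p = 5.14e-04). As means of their probe sets Gja1 (-0.28), Kcne1, Kcnd2 and Kcnj5 did not pass. Without any 1 untreated or B6 array, 3 calcium and 1 to 2 potassium channel genes were lower, and with control-based scaling 2 and 3, with 4 calcium genes higher.

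Of 20 tested genes of adrenergic and cyclic AMP signalling 3 fell and 1 rose (median -0.10). The alpha-adrenergic receptor Adra1b gave 104 and 132 against 266 and 190 (log2 difference -0.88 ± 0.20, adjusted p = 0.0321), the phosphodiesterase Pde4b fell by 0.37, and the receptor kinase Grk5 rose by 0.38. Prkaca, a catalytic subunit of protein kinase A, fell by 0.65 ± 0.06 in its brightest probe set and rose by 0.30 in another. Angiotensinogen, Agt, the source of angiotensin peptides, was dim, with 18.1 and 7.39 against 70.3 and 95.2 (-2.00 ± 0.38, adjusted p = 0.0178). The converting enzyme Ace gave 561 and 590 against 443 and 404, which did not pass (adjusted p = 0.103), while another Ace probe set rose by 0.69. Pebp1, an inhibitor of Raf kinase, gave 6251 and 6364 against 5997 and 6017, which did not pass. Grk5, Adra1b, Pde4b and Agt lost their calls without at least 1 array, and Grk5, Prkaca and Pde4b with the mean of a gene's probe sets (Grk5 0.04).

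The extracellular matrix changed in both directions. Of 50 tested matrix genes 7 rose and 10 fell (median -0.014), and 12 and 0 were higher with control-based scaling and without scaling. Thbs1, a matricellular activator of TGF-beta, gave 143 and 163 against 60.8 and 65.3 (log2 difference 1.14 ± 0.19, adjusted p = 0.0105). Cilp, made by activated cardiac fibroblasts, gave 398 and 405 against 234 and 219 (0.80 ± 0.09, adjusted p = 0.00164), and the protease inhibitor Timp3 gave 2907 and 2899 against 1949 and 1999 (0.55 ± 0.05, adjusted p = 3.98e-04). Col8a1 and Fmod rose by 0.50 each, and the collagen chaperone Serpinh1 by 0.36.

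Among the 10 that fell, Col3a1 gave 3036 and 2990 against 3990 and 4000 (log2 difference -0.41 ± 0.04, adjusted p = 5.96e-04), and Col4a1 gave 2767 and 2822 against 3733 and 3637 (-0.40 ± 0.04, adjusted p = 0.00116). Elastin, Eln (-0.63), the elastin cross-linker Loxl1 (-0.49), the small proteoglycans Ogn (-0.46) and Lum (-0.42), and Nid1 (-0.40), Col5a1 (-0.53) and Col1a2 (-0.27) fell. The membrane protease Mmp14 gave 243 and 289 against 551 and 384 (-0.77 ± 0.16, adjusted p = 0.0232), although its other probe sets gave -0.03 and 0.07. Col1a1 gave 924 and 902 against 926 and 919, which overlapped, but another of its probe sets fell by 0.58. Postn, a marker of fibrosis, gave 843 and 780 against 673 and 702 and did not pass (adjusted p = 0.0807).

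Fibroblast markers fell in 5 of 20 and rose in 1 (Vim, 0.18, and -0.01 without scaling), with summed signals of 47819 and 48130 against 51219 and 51658. Of 13 activated fibroblast markers 2 rose, Cilp and the factor Meox1 (510 and 502 against 278 and 305, log2 difference 0.78 ± 0.09), and 0 fell. The prolyl hydroxylases that stabilize collagen rose, P4ha1 with 820 and 787 against 419 and 379 (0.99 ± 0.09, adjusted p = 4.39e-04) and P4ha2 with 880 and 902 against 560 and 600 (0.61 ± 0.07, adjusted p = 0.0022). The fibroblast list itself holds Col1a1, Col1a2, Col3a1 and Lum, so its sum follows the collagens in part by construction. Col3a1, Col1a2 and Lum are also among the fibroblast markers that fell. The part of fibroblasts in the matrix differences was not tested. With 1 untreated or B6 array left out 7 to 8 matrix genes were lower and 3 to 5 higher, Col3a1, Col4a1, Loxl1, Ogn, Lum, Nid1, Cilp, Timp3 and Serpinh1 each time. As means of their probe sets Col4a1 (-0.20), Col5a1, Loxl1, Ogn, Mmp14, Col8a1, Fmod and Vim did not pass.

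Immediate early genes, which respond within minutes to stimulation and handling, split. Of 24 tested 4 rose and 3 fell (median 0.024). Egr1 gave 322 and 320 against 1005 and 1012 (log2 difference -1.62 ± 0.06, adjusted p = 3.74e-06), Fos 86.6 and 110 against 232 and 209 (-1.09 ± 0.14, adjusted p = 0.00257) and the phosphatase Dusp1 2050 and 1957 against 3009 and 3020 (-0.59 ± 0.05, adjusted p = 2.69e-04). Higher were Ier3 (1469 and 1432 against 888 and 843, 0.74 ± 0.06), Ier5 (0.68), Atf3 and the orphan receptor Nr4a3. Nr4a3 gave 252 and 273 against 28.4 and 58.3 (2.38 ± 0.27, adjusted p = 0.0016), but its other probe set gave 0.21. All 7 kept their calls with any array left out.

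Of 18 tested clock genes 4 rose and 1 fell (median 0.16). Between 2 and 3 were higher with 1 untreated or B6 array left out, and 0 without scaling, and Per2 and Ciart lost their calls without at least 1 array. The repressor Per2 gave 193 and 194 against 102 and 91.7 (log2 difference 0.92 ± 0.15, adjusted p = 0.0094), and Ciart rose by 0.57. The output factors Tef (1991 and 1976 against 1376 and 1506) and Dbp (2540 and 2603 against 1945 and 1988) rose by 0.46 ± 0.06 and 0.39 ± 0.05. Per2 and Tef did not pass as means of their probe sets. Nr1d1, the repressor of the activator gene Arntl, gave 336 and 376 against 627 and 738 (-0.92 ± 0.11, adjusted p = 0.00223). Arntl gave 48.4 and 31.1 against 81.7 and 110 and did not pass (adjusted p = 0.0769). The labels give no hour of sampling.

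In the glucocorticoid response 5 of 20 tested genes rose and 3 fell (median -0.015). The receptor chaperone Fkbp5 gave 578 and 540 against 331 and 370 (log2 difference 0.66 ± 0.09, adjusted p = 0.00493), Zbtb16 gave 836 and 627 against 384 and 408 (0.85 ± 0.14, adjusted p = 0.00803), and the kinase Map3k6 rose by 0.99 ± 0.24 (adjusted p = 0.0392). The 2 other genes that rose were Mt1 and Mt2, and the 3 that fell were Angptl4, Pdk4 and Dusp1, so targets of this hormone moved in both directions. With 1 untreated or B6 array left out 4 were higher and 3 lower.

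Red blood cell genes fell in 4 of 7 tested and rose in 0 (median -0.68), with summed signals of 4529 and 4895 against 5860 and 6000. Most of that sum came from Fech, at 2971 and 3000 against 2970 and 3134, which overlapped and did not pass. Alas2, the red cell heme synthase, gave 247 and 229 against 542 and 582 (log2 difference -1.20 ± 0.18, adjusted p = 0.00578). Hbb-b2, a beta globin, gave 68.5 and 107 against 185 and 182 (-1.003 ± 0.231, adjusted p = 0.0354), although another of its probe sets gave -0.02. Of 16 listed genes 3 were below the filter on dim probe sets, Hba-a1 and Hba-a2 among them. Another 6 had no probe set assigned to them alone. Whether these probe sets measure the main globin transcripts was not determined. The transferrin receptor Tfrc, also made by heart muscle, gave 930 and 1069 against 1518 and 1567 (-0.62 ± 0.07, adjusted p = 0.00169), and Bpgm fell by 0.68. Counts of members lower ranged from 1 to 4 with 1 untreated or B6 array left out, and Tfrc was lower each time. As means of their probe sets Tfrc and Hbb-b2 did not pass.

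Several of the largest differences belonged to none of these groups. Cpxm2, a secreted carboxypeptidase-like protein, gave 1239 and 1262 against 340 and 316 (log2 difference 1.90 ± 0.07, adjusted p = 2.22e-06), and another of its probe sets rose by 1.09. The treated apoE-deficient arrays had Cpxm2 at 1294 and 1288, so all 4 apoE-deficient arrays of the series lay above both B6 arrays. The zinc finger gene Zfp30 gave 412 and 279 against 115 and 72.5 (1.77 ± 0.24, adjusted p = 0.00366). The nuclease Fen1 gave 2509 and 2929 against 622 and 522 (2.23 ± 0.22, adjusted p = 8.58e-04), but its other probe set gave -0.13. The costimulatory ligand Icosl rose by 1.48 in 1 probe set and gave -0.50 in another, and their mean did not pass. Gnb3, a G protein subunit, gave 179 and 181 against 77.9 and 54.9 (1.32), the water channel Aqp8 192 and 216 against 70.4 and 93.0 (1.22), and trypsinogen Prss2 168 and 142 against 76.1 and 44.3 (1.25).

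Lower outside the groups were the nuclear RNA Malat1 (1018 and 1037 against 2566 and 2522, log2 difference -1.30 ± 0.07, adjusted p = 4.04e-05) and Mlana, a pigment cell protein (46.7 and 39.6 against 156 and 151, -1.60 ± 0.16, adjusted p = 8.05e-04). Of 6 other Malat1 probe sets 2 passed, both as lower (-0.57 and -0.54). Bcl2l11, the cell death activator Bim, gave 216 and 185 against 456 and 485 (-1.19 ± 0.11, adjusted p = 4.99e-04), and 2 of its other probe sets fell by 1.40 and 1.53. It was the only member of 19 tested genes of apoptosis that passed. Lgals4, a galectin (-1.10), Tent5c, which lengthens RNA tails (-1.37), the microtubule-severing Fign (-1.27) and Klhl32 (-1.25, a call lost as the mean of its probe sets) also fell. Of the genes of this and the preceding paragraph Prss2, Lgals4, Tent5c, Fign and Klhl32 lost their calls without at least 1 array, and the other ones kept theirs.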

How the data were processed

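The values were probe set intensities on a linear scale, as deposited by the authors for all 6 arrays; per the submitters' processing notes they came from GCOS, Affymetrix's array software, whose version and summary method were not given in the sources used here. Of 45101 probe sets, 64 controls were left out, 34945 carried 1 gene symbol, 932 several and 9160 none, and no gene was named from the latter kinds. Symbols of 34741 probe sets were updated through the RefSeq gene table (GRCm38.p6).

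Intensities were quantile-normalized over the 6 arrays, a pseudocount of 11.1 (the 25th percentile) was added, and log2 was taken. Probe sets with a mean log2 value under the 40th percentile (4.99) were left out. limma 3.58.1 in R 4.3.3 fitted 3 groups of 2 arrays (3 residual and 5.97 prior degrees of freedom, with an intensity trend), with Benjamini-Hochberg adjustment over 27022 probe sets. A gene is represented by its brightest probe set by mean, and the text says where a call was lost with the mean of its probe sets. The procedure was tested on simulated data.

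Same-numbered arrays did not deviate together (correlation 0.02 between untreated apoE-deficient and B6, -0.0063 and 0.033 with the treated pair), so the numbers were not used as pairs.

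Named genes were the 15 highest and 15 lowest passing genes that were bright and did not overlap, the 6 smallest p-values of each of 66 lists, a panel of cardiac and lipid genes, the 15 genes on either side of Apoe, and members of lists with few calls. Further list members were named after their values were seen. The comparison, the lists and the rule were chosen with earlier results of these data known. Alternatives were other scalings, pseudocounts and filters, other fits, the mean of a gene's probe sets and leaving out each array.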

Additional observations from a re-analysis of the deposited data

How the results depend on the processing

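The variance model, the scaling and the number of arrays moved the counts. With scaling to the hybridization controls 3039 probe sets (2458 higher, 581 lower) and 1775 genes (1469 higher, 306 lower) passed, with array medians centred 1735 probe sets and 1017 genes were lower, and without scaling 73 probe sets and 34 genes were higher. With no intensity trend 10 probe sets (6 higher, 4 lower) and 4 genes (3 higher, 1 lower) passed, and Apoe stayed at -6.12 with an adjusted p of 0.0577 by limma. Leaving out 1 of the 6 arrays gave 617 to 1730 probe sets (336 to 801 higher, 265 to 929 lower) and 363 to 1025 genes (186 to 471 higher, 155 to 555 lower), and Apoe between -6.64 and -5.57. The cause of these shifts was not tested, beyond the smaller number of arrays in the last.

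With the replicate block 1937 probe sets (866 higher, 1071 lower) and 1133 genes (506 higher, 627 lower) passed, and Apoe had an adjusted p of 4.60e-06 by limma. Of 210 passing genes with named calls, 101 kept them without any one array, 77 under the 6 other scalings, 153 with the mean of a gene's probe sets, and 43 under every alternative except the one with no intensity trend.

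The sign turned for Tomm40 (-0.005), Hspb7 (-0.065), Hspb6 (-0.024), Atf6 (-0.045) and Vim (-0.014) without scaling, for Cd36 (0.093) and Acadl (0.099) with scaling to the hybridization controls, and for Vldlr (-0.111), Cxcl1 (-0.228), Slc8a1 (0.079) and Flt1 (-0.015) with the mean of a gene's probe sets. Dim probe sets, such as those of Agt, Pdk3 and Apoc4, have the widest errors.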

Other observations

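Genes of lipid synthesis moved both ways, with 4 of 22 higher and 3 lower (median -0.018). The desaturase Scd2 gave 548 and 585 on the untreated apoE-deficient arrays against 421 and 391 on the B6 arrays (log2 difference 0.47, limma adjusted p = 0.00881), and the elongase Elovl5 gave 1276 and 1206 against 891 and 899 (0.47, adjusted p = 0.00887), while Scd1 and Fasn fell. In insulin signalling 1 of 21 rose and 4 fell. The pseudokinase Trib1 gave 161 and 172 against 82.0 and 59.4 (1.13, adjusted p = 0.0219), and the growth factor Igf2 gave 460 and 459 against 678 and 708 (-0.58, adjusted p = 0.00776). As means of their probe sets Scd2 (0.27) and Igf2 (-0.475) did not pass.

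Muscle atrophy and autophagy genes rose in 3 of 24 and fell in 3. The ubiquitin ligase Trim63 gave 2672 and 2601 against 3763 and 3420 (log2 difference -0.44, limma adjusted p = 0.00454) and Fbxo32 1476 and 1405 against 1663 and 1675 (-0.21, adjusted p = 0.0465), while Trim54 (0.37) and the autophagy protein Gabarapl1 (0.41) rose with Sqstm1. Endothelial genes rose in 3 of 24 and fell in 3. The VEGF receptor Kdr gave 657 and 642 against 875 and 929 (-0.47, adjusted p = 0.0042). Flt1, the other VEGF receptor, gave 1113 and 1066 against 718 and 866 (0.46, adjusted p = 0.0253), but its other probe sets gave -0.09, -0.40 and -0.04 and their mean with it was -0.015.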
